A study of Mus musculus with 6 samples.

Results

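Aminoacyl-tRNA synthetases are the enzymes that join each amino acid to its transfer RNA (tRNA). The genes described here are 20 cytosolic synthetases, 16 mitochondrial synthetases and 3 scaffold proteins of the multisynthetase complex, 39 genes in all. They were taken by gene symbol from a table of assembled isoforms, in which 31310 genes had an isoform of the kind used. Symbols that end in 2 are mitochondrial enzymes, except Aimp2, which is a scaffold together with Aimp1 and Eef1e1. All 39 reached the level needed for testing (1 FPKM or more on average in at least 1 of the conditions), as did 13207 genes in all.

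The libraries hold polyA RNA of TT-FHAgo2, a clonal line of mouse embryonic stem cells. Its supply of Argonaute 2 (Ago2), which binds microRNAs and guides them to transcripts, is under the control of doxycycline. Cells were kept in 0.1 µg/mL doxycycline and were then either taken off the drug for 96 h (2 libraries, called off doxycycline here) or raised to 2.5 µg/mL for 48 h (2 libraries, called on doxycycline). The labels equate the higher dose with wild-type amounts of Ago2. The conditions differ in the drug itself and in the hours as well as in the supply of Ago2. These cannot be told apart in what follows. The lower dose of doxycycline before the experiment was shared by both conditions, and the labels name no further allele. All 4 libraries were strand-specific and made by the UTP method. The spike-in libraries of the series, from embryonic and from mesenchymal stem cells, were not analysed here.

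Cytosolic synthetases charge the tRNAs read by the ribosomes of the cytoplasm, and a separate set of nuclear genes encodes the enzymes that charge tRNAs inside mitochondria. In animals a group of the cytosolic enzymes is held together with the 3 scaffolds in the multisynthetase complex, and Gars and Kars supply both compartments. When uncharged tRNA builds up or other stresses act, phosphorylation of the initiation factor eIF2 raises translation of the transcription factor ATF4, whose known target genes include many cytosolic synthetases.

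FPKM, a fragment count scaled to the isoform's length and to the size of the library, was summed per gene. Each log2 change below is the value off doxycycline minus the value on doxycycline after a log2(FPKM + 0.5) transform. This transform shrinks the changes of weakly expressed genes. Errors are SD over n = 2 libraries a condition, and calls are limma's at a Benjamini-Hochberg adjusted p of 0.05 over all genes tested. The labels do not state whether the 2 libraries of a condition are separate cultures. The p-values reflect only how these libraries vary, and that variation may be technical.

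Some facts of the whole set of libraries bear on every value. The FPKM of the isoforms used added up to 0.449 M and 0.485 M off doxycycline (M, mega), against 0.509 M and 0.535 M on doxycycline, and the median log2 change of all genes tested was -0.06. Of all genes tested, 2608 were higher and 2809 lower off doxycycline. With values rescaled to TPM (a total of 1 M in each library), 14741 genes reached the same minimum of 1, of which 3996 were higher and 1917 lower, and the median change of all genes was 0.10, a shift of 0.16. Ago2, which the files call Eif2c2, measured 28.7 and 28.8 FPKM off doxycycline, against 35.2 and 36.7 on doxycycline. This difference of -0.32 (SE 0.08) passed in limma (adjusted p = 0.0287) but did not pass without any 1 of the 4 libraries (adjusted p of 0.0752 to 0.205), where it was -0.35 to -0.29. In such fits the lone library of a condition is assumed to vary like the pair of the other. The Ago2 change was -0.16 with TPM, -0.18 with the most abundant isoform and -0.82 with annotated isoforms alone, and was called in none of these (adjusted p = 0.148, 0.412 and 0.0506). The files do not separate the doxycycline-controlled Ago2 from any endogenous Ago2, and the labels do not state whether the line keeps an endogenous copy. The embryonic stem cell markers Pou5f1, Nanog, Sox2, Zfp42, Esrrb, Utf1 and Dppa5a summed to between 3773 and 4421 FPKM off doxycycline, against 3682 to 4208 on doxycycline. Nanog was called higher (log2 change 0.54), and Utf1 and Zfp42 were called lower (log2 changes -0.61 and -0.49), while Sox2, at 0.28, was not called. Of 7 fibroblast and mesenchymal markers, none changed in limma among the 2 that reached the test, Col3a1 was listed at 0 in all 4 libraries, and the sum over the 7 was 5.34 to 5.62 FPKM off doxycycline and 4.80 to 5.06 on doxycycline. The part of these shifts in what follows was not tested. In polyA RNA of a whole culture, fewer cells of a type and less RNA per cell cannot be told apart.

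Off doxycycline, 20 of the 39 genes were lower and none was higher in limma. Of all genes tested, 21.3% were called lower and 19.7% higher at the same adjusted threshold. At an unadjusted limma p of 0.05, 25 of the 39 were lower and 0 higher. The share of all genes at that looser level was not counted. The median log2 change of the 39 was -0.37, with a range of -0.88 to 0.37. In 31 of the 39, both libraries off doxycycline were below both on doxycycline, in 1 (Pars2) both were above, and 7 overlapped. Of all genes tested, 40.0% lay below in this sense and 33.1% above, together 73.1%. A called fall of at least 0.5 on the log2 scale was seen in 13 of the 39 genes and in 13.0% of all genes tested. With TPM, 16 of the 39 were called lower and 1, Vars2, higher. Of the 14741 genes tested with TPM, 1917 were called lower and 3996 higher. How many of the 39 and of all genes were called lower with a library left out is given in the closing section. Only Eef1e1, Lars, Nars, Rars2, Sars, Tars, Wars and Yars were called in each of the 15 alternative fits, and all 20 kept a negative change in each.

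**Figure D1:**
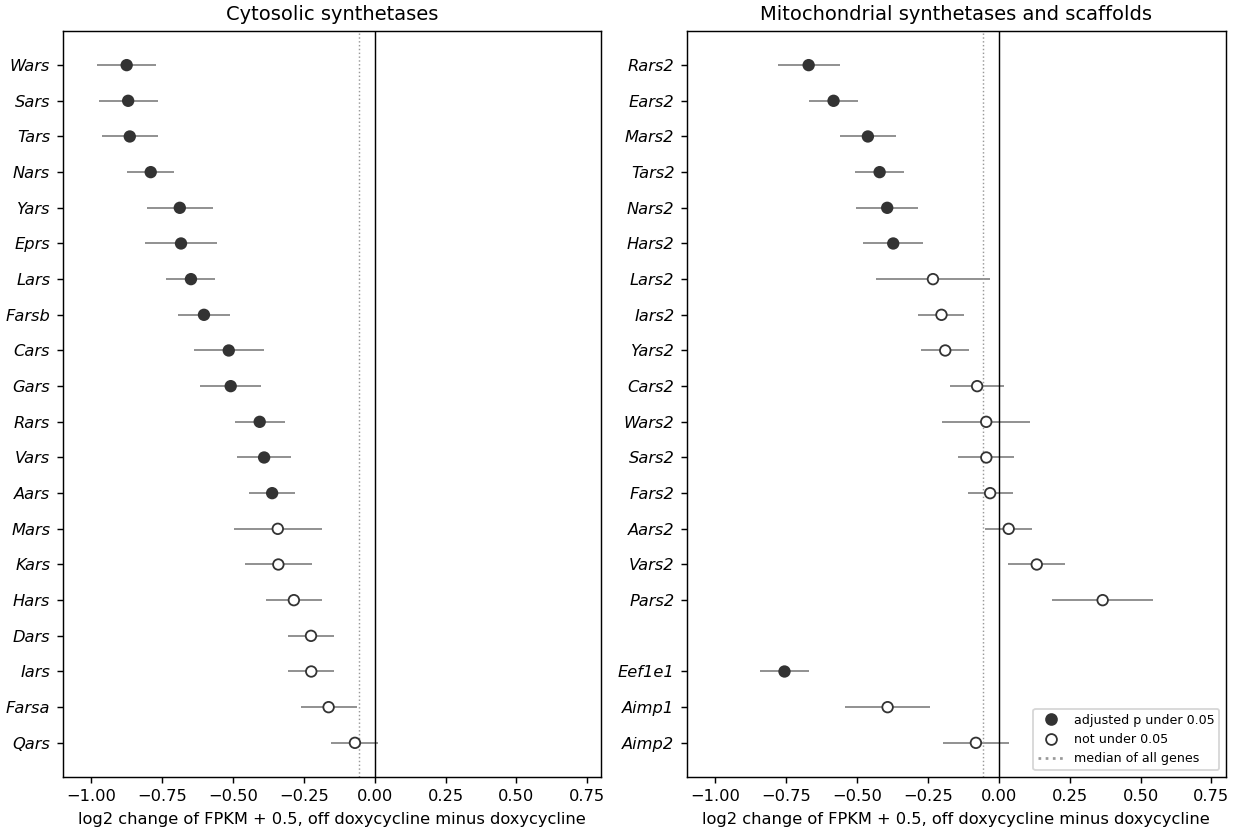
Log2 change of FPKM + 0.5, off doxycycline minus doxycycline, for the 20 cytosolic synthetases (left) and the 16 mitochondrial synthetases and 3 scaffolds (right). Points are limma estimates and bars their SE (n = 2 libraries a condition), filled points have an adjusted p under 0.05, and the dotted line is the median of all genes tested at -0.06. All 20 cytosolic points lie left of 0, between -0.88 and -0.07, while the mitochondrial points run from -0.67 to 0.37.

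Of the 20 cytosolic synthetases, 13 were called lower off doxycycline and none higher, and the median log2 change of the 20 was -0.46. In all 20 both libraries off doxycycline were below both on doxycycline. Of all genes tested, 21.3% were called lower and 40.0% lay below in this sense. Summed over the 20 genes, their RNA stood at 1648 and 1803 FPKM off doxycycline, against 2356 and 2534 on doxycycline. The 7 that did not pass had log2 changes of -0.34 to -0.07. On the TPM scale the median was -0.30, and relative to the median of all genes it was -0.40 on either scale.

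The largest differences were those of Wars, Sars and Tars, the enzymes for tryptophan, serine and threonine. Wars (chromosome 12, 110098240 to 110132384, minus strand, build NCBIM37) measured 13.7 and 15.3 FPKM off doxycycline, against 25.4 and 28.6 FPKM on doxycycline. Wars was also the least abundant of the 20 in both conditions, with means of 14.5 ± 1.13 and 27.0 ± 2.24 FPKM. Its log2 change was -0.88 (SE 0.10, limma adjusted p = 0.00423).

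Sars (chromosome 3, 108227783 to 108248324, minus strand) stood at 112 and 123 FPKM off doxycycline, against 203 and 227 FPKM on doxycycline. Both libraries off doxycycline were far below both on doxycycline, and the log2 change was -0.87 (SE 0.10, limma adjusted p = 0.00431). Tars (chromosome 15, 11313418 to 11329413, minus strand) stood at 64.9 and 72.8 FPKM off doxycycline, against 121 and 130 FPKM on doxycycline. The groups were again well apart, at a log2 change of -0.86 (SE 0.10, limma adjusted p = 0.00397).

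Nars, which charges asparagine tRNA, measured 123 and 119 FPKM off doxycycline, against 210 and 210 FPKM on doxycycline. Its 2 libraries on doxycycline had nearly the same value, and its log2 change was -0.79 (SE 0.08, limma adjusted p = 0.00322). Yars, the tyrosine enzyme, stood at 57.6 and 64.2 FPKM off doxycycline, against 90.5 and 106 FPKM on doxycycline. The groups did not overlap, although the 2 libraries on doxycycline differed from each other by more than those off it (log2 change -0.69, limma adjusted p = 0.0102).

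Eprs encodes a bifunctional enzyme that charges both glutamate and proline tRNA, and Lars the leucine enzyme. Both belong to the multisynthetase complex. Eprs measured 77.3 and 89.1 FPKM off doxycycline, against 123 and 145 FPKM on doxycycline, and Lars 69.9 and 74.5 FPKM off doxycycline, against 111 and 116 FPKM on doxycycline. Neither gene's groups overlapped. The log2 change was -0.68 (SE 0.13) for Eprs and -0.65 (SE 0.09) for Lars, with limma adjusted p-values of 0.0126 and 0.00547.

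Phenylalanyl-tRNA synthetase is built from 2 kinds of subunit, the catalytic alpha chain encoded by Farsa and the beta chain encoded by Farsb. Farsb measured 72.7 and 80.7 FPKM off doxycycline, against 114 and 119 FPKM on doxycycline (log2 change -0.60, SE 0.09, limma adjusted p = 0.00795). Farsa measured 74.9 and 84.4 FPKM off doxycycline, against 86.3 and 91.8 FPKM on doxycycline. Both libraries off doxycycline were below both on doxycycline for Farsa too, but by little, and its change of -0.16 (SE 0.10) did not pass (adjusted p = 0.236). The difference between the changes of the 2 subunits was not tested.

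Cars, the cysteine enzyme, measured 45.5 and 53.9 FPKM off doxycycline, against 66.3 and 76.0 FPKM on doxycycline, which do not overlap (log2 change -0.51, SE 0.12, limma adjusted p = 0.0261). Gars (chromosome 6, 54988019 to 55029484, plus strand), the glycine enzyme of both compartments, measured 151 and 169 FPKM off doxycycline, against 216 and 241 FPKM on doxycycline. It had the highest mean of the 39 genes on doxycycline, 228 ± 17.7 FPKM, and the second highest off it, 160 ± 12.8 FPKM. Its log2 change was -0.51 (SE 0.11, limma adjusted p = 0.0192). Aars, Rars and Vars, for alanine, arginine and valine, were called lower by less, with log2 changes of -0.36, -0.41 and -0.39.

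**Figure D2:**
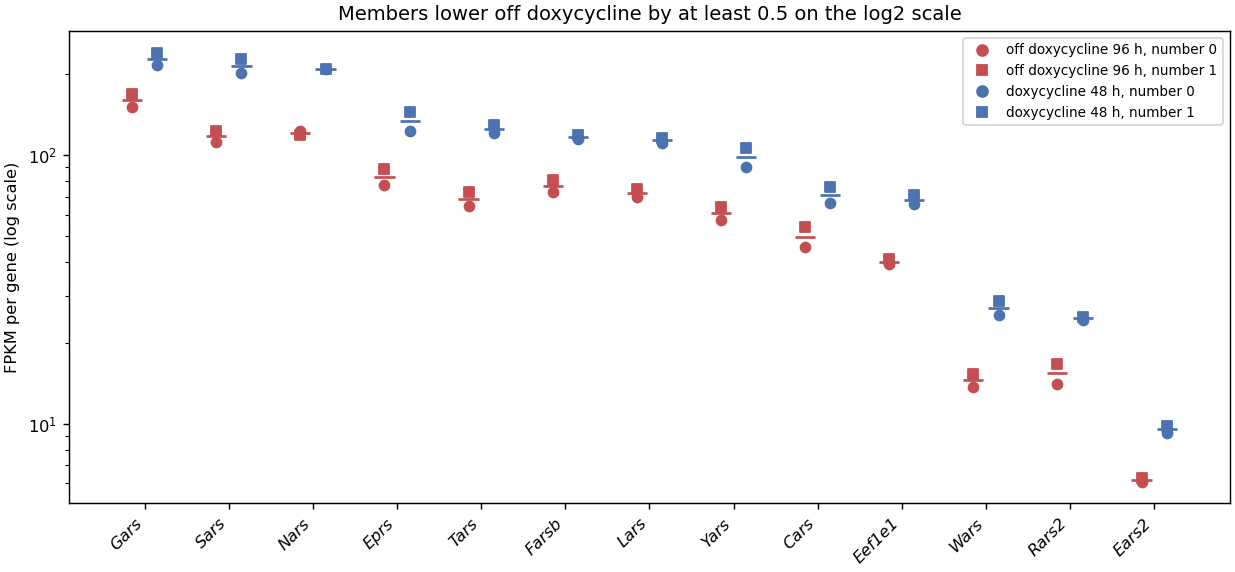
FPKM per gene on a log axis in each of the 4 libraries for the 13 genes called lower off doxycycline by at least 0.5 on the log2 scale, with off doxycycline left of doxycycline for each gene, circles and squares for the libraries numbered 0 and 1, and a bar at the mean. Mean levels off doxycycline run from 6.18 FPKM (Ears2) to 160 FPKM (Gars), and in every one of the 13 both points off doxycycline lie below both on doxycycline.

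The 7 cytosolic enzymes that were not called were Dars, Farsa, Hars, Iars, Kars, Mars and Qars. Mars was called when isoforms under 500 nt were left out (log2 change -0.33, limma adjusted p = 0.0219), and Mars and Kars were called without the library numbered 1 off doxycycline (-0.52 and -0.45). Hars, the histidine enzyme, lay nearest to the threshold from above (adjusted p = 0.0697). It measured 44.8 and 50.2 FPKM off doxycycline, against 55.8 and 60.1 FPKM on doxycycline, which do not overlap (log2 change -0.29, SE 0.10). Qars, the glutamine enzyme, had the smallest change of the 20, -0.07 (SE 0.08, adjusted p = 0.531). Its values were 70.6 and 68.0 FPKM off doxycycline, against 74.7 and 70.8 FPKM on doxycycline, so that the groups are next to each other without overlapping.

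Among the 8 cytosolic members of the multisynthetase complex, 3 were called lower (Eprs, Lars and Rars), with a median change of -0.34. Among the 12 cytosolic enzymes outside it, 10 were called lower, with a median change of -0.56. The share of all genes tested that were called lower was 21.3%. The called and uncalled genes of the complex had changes of -0.68 to -0.41 and of -0.34 to -0.07. Of the 3 scaffolds that hold the complex together, 1 was called lower. Eef1e1 (chromosome 13, 38736215 to 38750931, minus strand), also known as p18 or AIMP3, measured 39.3 and 41.0 FPKM off doxycycline, against 65.5 and 70.8 FPKM on doxycycline. Its groups were far apart, with a log2 change of -0.76 (SE 0.09, limma adjusted p = 0.00397). Aimp1, or p43, measured 57.5 and 71.2 FPKM off doxycycline, against 76.5 and 92.6 FPKM on doxycycline. The groups do not overlap, but the libraries of each condition differ widely and the change of -0.39 (SE 0.15) did not pass (adjusted p = 0.0889). Without the library numbered 1 off doxycycline it was -0.54 and was called. Aimp2, or p38, measured 49.3 and 59.2 FPKM off doxycycline, against 55.3 and 59.2 FPKM on doxycycline. These groups overlap, and the change was -0.08 (SE 0.12, adjusted p = 0.602).

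Reported targets of ATF4 make up 12 of the 20 cytosolic synthetases, namely Aars, Cars, Eprs, Gars, Iars, Lars, Mars, Nars, Sars, Tars, Wars and Yars. Of these, 10 were called lower, with a median log2 change of -0.67 and a range of -0.88 to -0.22. The share of all genes tested that were called lower was 21.3%. Iars and Mars were not called. Of the other 8, Farsb, Rars and Vars were called lower, and the median was -0.31. The split by the complex above gave the same counts, 10 of 12 outside it and 3 of 8 within it. Neither split was tested, and the lists were chosen with earlier results of these data known. Atf4 itself measured 163 and 180 FPKM off doxycycline, against 259 and 284 FPKM on doxycycline. Its groups did not overlap, and its log2 change was -0.66 (SE 0.10, limma adjusted p = 0.00826).

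ATF4 pairs with C/EBP proteins on DNA elements of the form TGATGNAA, so the promoters were searched for these letters on both strands. RefSeq promoters (GRCm38.p6, 250 bases before to 50 after the start) matched 30 of the 39 genes, Mars by its newer symbol Mars1. Of the 30, 5 held TGATGNAA, all of them cytosolic and all on the list of reported ATF4 targets, where 8 had a promoter. The counts were 5 of 13 cytosolic, 0 of 14 mitochondrial and 0 of 3 scaffold promoters, against 2.75% of the 8147 tested genes that had a promoter. Of the 20 genes called lower 13 had a promoter, and 4 of these held it. Of the 19 others 17 had a promoter, and 1 of these held it. Wars and Nars, both called lower, were among the genes without a promoter. Since all 5 genes with a match are cytosolic, this split cannot be separated from that by compartment. The form TGATGCAA, which is contained in TGATGNAA, stood in 4 of the 30 and in 0.773% of the promoters of tested genes. The letters TGACGTCA, the element of the related CREB and ATF factors, stood in none of the 30 and in 3.82%. A match is a description of letters and does not show binding. The windows that hold the letters are printed with the match in capitals, 5′ to 3′ on the strand of the gene, and the position of the first base of the match is counted from 1 at the start of the transcript, negative before it.
Tars (chr15:11399646-11399693, minus strand, match at -15): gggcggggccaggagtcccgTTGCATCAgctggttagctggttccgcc
Yars (chr4:129189886-129189933, plus strand, match at 4): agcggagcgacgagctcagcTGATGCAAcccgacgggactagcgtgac
Gars (chr6:55037951-55037998, plus strand, match at -30): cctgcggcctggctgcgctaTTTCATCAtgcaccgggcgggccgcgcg
Aars (chr8:111033710-111033757, plus strand, match at -112): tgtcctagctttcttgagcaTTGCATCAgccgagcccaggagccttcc
Aars (chr8:111033831-111033878, plus strand, match at 10): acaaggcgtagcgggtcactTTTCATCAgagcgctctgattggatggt
Iars (chr13:49682117-49682164, plus strand, match at 8): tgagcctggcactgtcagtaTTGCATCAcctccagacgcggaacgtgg
The Yars match reads forward and the others are on the opposite strand, and Iars is the only gene of these 5 that was not called (log2 change -0.22, limma adjusted p = 0.0807). With annotated isoforms alone, Iars was at -0.84 and was called (limma adjusted p = 0.0338). That value rests on a single minor form, which held 4.93% of Iars off doxycycline and 7.96% on doxycycline. The main assembled form, with 75.3% and 75.5%, changed by -0.23 and was not called in the fit of isoforms.

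Of the 16 mitochondrial synthetases, 6 were called lower off doxycycline and none higher, and the median log2 change was -0.20. Both libraries off doxycycline were below both on doxycycline in 9 genes and above them in 1, and 6 overlapped. Of all genes tested, 21.3% were called lower, and 40.0% lay below and 33.1% above in this sense. The sum over the 16 was 262 and 304 FPKM off doxycycline, against 326 and 336 FPKM on doxycycline. With TPM, 3 genes were called lower and Vars2 higher. Of the 14741 genes tested on that scale, 1917 were called lower and 3996 higher. The median of the 16 was -0.04 with TPM. Relative to the median of all genes, it was -0.14 on either scale.

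Rars2 and Ears2, which charge arginine and glutamate tRNA in mitochondria, had the largest falls of the 16. Rars2 (chromosome 4, 34562206 to 34607416, plus strand) measured 14.0 and 16.8 FPKM off doxycycline, against 24.4 and 25.0 FPKM on doxycycline (log2 change -0.67, SE 0.11, limma adjusted p = 0.00929). Ears2 (chromosome 7, 129180475 to 129210777, minus strand) measured 6.08 and 6.29 FPKM off doxycycline, against 9.21 and 9.82 FPKM on doxycycline (log2 change -0.58, SE 0.09, limma adjusted p = 0.00744). In both genes the groups are clearly apart, and the libraries of a condition lie close to each other in Ears2.

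Mars2, Tars2, Nars2 and Hars2, for methionine, threonine, asparagine and histidine, were called lower by 0.37 to 0.46 on the log2 scale. Hars2 lay nearest to the threshold from below (adjusted p = 0.0406). It measured 13.2 and 12.8 FPKM off doxycycline, against 18.4 and 15.7 FPKM on doxycycline, where the 2 libraries on doxycycline differ from each other by more than the gap between the groups (log2 change -0.37, SE 0.11). Hars2 starts 159 bases from the start of Hars, on the other strand, in the assembly. Hars and Hars2 changed by -0.29 and -0.37.

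The 10 uncalled mitochondrial enzymes had a median change of -0.04, and those of Pars2, Vars2 and Aars2 were above 0. Pars2, for proline, measured 5.99 and 4.33 FPKM off doxycycline, against 3.47 and 4.25 FPKM on doxycycline. The groups do not overlap, but the library numbered 1 off doxycycline lies next to those on doxycycline, and the change of 0.37 (SE 0.18) did not pass (adjusted p = 0.157). Lars2, for leucine, was the most abundant of the 16 and measured 63.7 and 96.4 FPKM off doxycycline, against 89.7 and 94.6 FPKM on doxycycline. Its 2 libraries off doxycycline lie on either side of those on doxycycline, and without the library numbered 0 off doxycycline its change was 0.06 instead of -0.23. Without the library numbered 1 off doxycycline it was -0.53 and was called lower (limma adjusted p = 0.0236). The least abundant, Wars2, averaged 3.12 ± 0.685 FPKM off doxycycline and 3.20 ± 0.0469 FPKM on doxycycline.

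Depth could be read for the libraries numbered 1 from the steps between low FPKM values. They corresponded to totals of 45.8 M fragments off doxycycline and 45.6 M on doxycycline. At these totals the gene with the fewest fragments, Mars2, rested on 311 fragments off doxycycline and 420 on doxycycline, and Aars, with the most, on 33607 and 43193. The depth of the libraries numbered 0 is unknown.

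All 16 mitochondrial enzymes could be set beside the cytosolic enzyme for the same amino acid. This gave 17 pairs, since Fars2 stands against both Farsa and Farsb. Eprs stands against both Ears2 and Pars2, so the pairs are not independent of each other. The cytosolic change was the more negative in 14 pairs and the less negative in 3 (histidine, methionine and arginine), and these differences were not tested pair by pair. In 9 pairs the cytosolic gene alone was called lower, in 2 the mitochondrial gene alone, in 4 both and in 2 neither. Of all genes tested, 21.3% were called lower. The widest gaps were those of proline, where Eprs changed by -0.68 and Pars2 by 0.37, and of tryptophan and serine, where Wars and Sars changed by -0.88 and -0.87 and Wars2 and Sars2 by -0.04 each. The cytosolic gene had the higher mean level on doxycycline in all 17 pairs. In leucine alone this order turned, with a ratio of Lars to Lars2 of 0.902 off doxycycline and 1.23 on doxycycline, within the wide spread of Lars2 given above. Asparagine had a ratio of 24.7 off doxycycline and 31.9 on doxycycline.

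**Figure D3:**
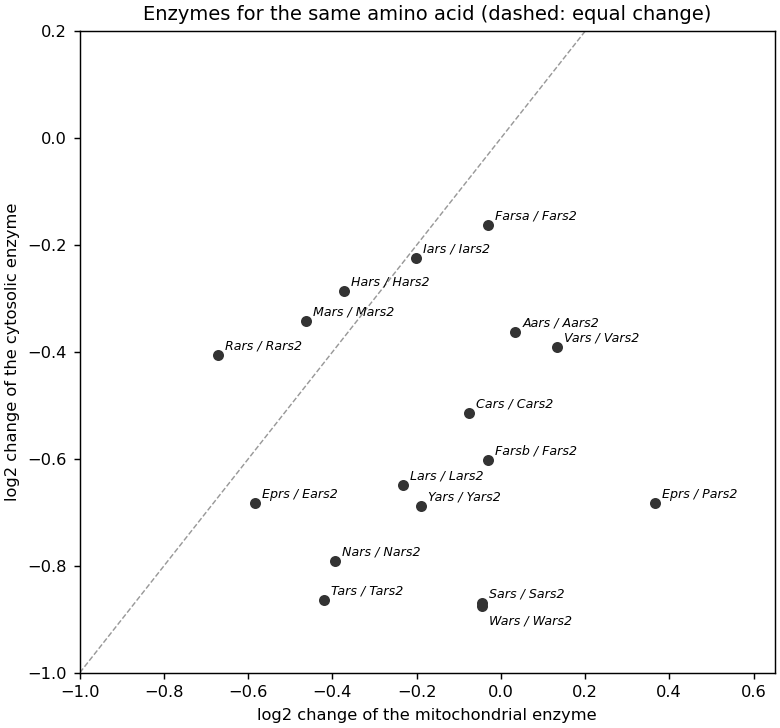
Log2 change of the cytosolic enzyme (vertical) against that of the mitochondrial enzyme (horizontal) for the 17 pairs that share an amino acid, off doxycycline minus doxycycline. Points below the dashed line of equal change are the 14 pairs with the more negative cytosolic value, and the 3 above it are the pairs of Hars, Mars and Rars. Eprs and Fars2 each stand in 2 pairs.

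Kars makes both the cytosolic and the mitochondrial lysine enzyme by alternative splicing, and the longer coding sequence carries the mitochondrial targeting part. As a gene, Kars (chromosome 8, 114517340 to 114535249, minus strand) measured 162 and 189 FPKM off doxycycline, against 209 and 234 FPKM on doxycycline. The groups do not overlap, but the change of -0.34 (SE 0.12) did not pass (adjusted p = 0.0722). Its main isoform, assembled on the transcript with the shorter coding sequence (1785 nt in GENCODE), stood at 127 and 153 FPKM off doxycycline, against 148 and 183 FPKM on doxycycline, and overlapped. The 4 isoforms closest to the transcript with the longer coding sequence (1872 nt) summed to 34.7 and 35.4 FPKM off doxycycline, against 60.8 and 50.7 FPKM on doxycycline, without overlap. The annotated transcript itself was listed at 0.00679 and 0 FPKM off doxycycline and at 0 in both libraries on doxycycline, so the sum comes from 3 assembled forms that share splice junctions with it. Whether these hold its coding sequence was not tested. They made up 21.5% and 18.8% of Kars off doxycycline, and 29.1% and 21.7% on doxycycline. These shares were not tested as such, and they rest on how Cufflinks divided reads between isoforms that share most exons.

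Across all 262 isoforms of the 39 genes, 119 were abundant enough to test and none passed in limma. None of the 32943 isoforms tested in all passed either way, while 2802 were higher and 3251 lower at an unadjusted p of 0.05. Of the 119, 27 were lower and 4 higher at that level. For 6 genes a single isoform was used, among them Gars, Lars and Tars, so their values do not depend on such a division. In Farsa, the 1826-nt main isoform stood at 58.2 and 67.9 FPKM off doxycycline, against 64.1 and 69.0 FPKM on doxycycline. The 1795-nt form stood at 0.590 and 2.19 FPKM off doxycycline, against 9.41 and 8.17 FPKM on doxycycline, and an assembled 1750-nt form at 7.52 and 7.32 FPKM off doxycycline, against 2.91 and 2.46 FPKM on doxycycline. These minor forms of Farsa lay without overlap in opposite directions, but neither passed in limma (adjusted p = 0.170 and 0.138).

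**Figure D4:**
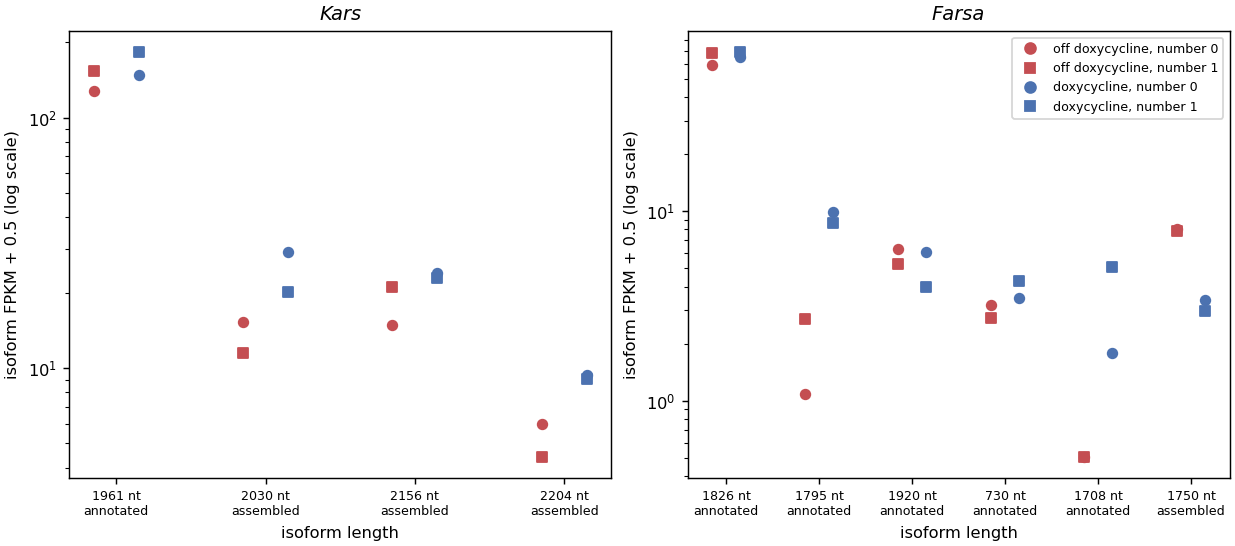
FPKM + 0.5 on a log axis of each isoform of Kars (left) and Farsa (right) that averaged 1 FPKM or more in at least 1 condition, labelled by length, with off doxycycline left of doxycycline and circles and squares for the libraries numbered 0 and 1. The 3 assembled Kars forms, all closest to the transcript with the longer coding sequence, lie lower off doxycycline, and in Farsa the 1795-nt and 1750-nt forms lie in opposite directions.

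Ago2 acts through microRNAs, and many of the most abundant microRNAs of mouse embryonic stem cells are known to share the seed AAGUGCU (bases 2 to 8, in capitals). MicroRNAs were not measured in these libraries. The mature sequences from RefSeq (GRCm38.p6) show the shared seed in miR-291a-3p and miR-294-3p of the miR-290 cluster and in miR-302d-3p of the miR-302 cluster.
mmu-miR-291a-3p: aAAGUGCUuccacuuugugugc
mmu-miR-294-3p: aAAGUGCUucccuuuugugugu
mmu-miR-302d-3p: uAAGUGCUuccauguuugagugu
Matches were sought in 3′ untranslated regions of GENCODE mouse release M21, taking the longest one annotated for a gene. In 27 of the 39 genes (69.2%) there was none, against 65.2% of the 10142 tested genes with a region. A match to all 7 seed bases followed by A (8mer) stood in 1 of the 39, Mars2, and in 3.67% of the tested genes. The Mars2 match lies at base 2270 of a region of 9470 nt, while the only Mars2 isoform measured is 1900 nt long and cannot hold it. A match to the 7 bases alone (7mer-m8) stood in 6, namely Cars, Aars2, Hars2, Iars2, Tars2 and Wars2, and in 14.8% of the tested genes. By compartment, 16 of the 20 cytosolic and 8 of the 16 mitochondrial genes held no match of any kind. The cytosolic regions were also the shorter, with a median of 854 nt against 1585 nt in the mitochondrial genes. The sites of Mars2, Cars and Tars2, which were called lower, and of Wars2, which was not called, read as follows, with the match in capitals.
Mars2: ttagtggtggAGCACTTAccgagcatgg
Cars: ctgccctctcAGCACTTggagagctga
Tars2: cattaatcccAGCACTTgggaggcagg
Wars2: attcataataAGCACTTctatttttac
Of the 7 genes with an 8mer or 7mer-m8 match, 4 were called lower and none higher. Of all 39 genes 20 were called lower, and of all genes tested 21.3%. The 4 include Mars2, whose measured isoform cannot hold the match. Whether the measured isoforms of the other 6 hold theirs was not tested. Mars2 measured 3.55 and 3.93 FPKM off doxycycline, against 5.35 and 5.32 FPKM on doxycycline. Both values off doxycycline are lower, with a log2 change of -0.46 (SE 0.10, limma adjusted p = 0.0188).

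Other genes of tRNA charging were called lower off doxycycline in 8 of 15 cases tested and higher in none, with a median change of -0.36. The shares of all genes tested were 21.3% called lower and 19.7% higher. Pstk, the kinase that acts on serine-charged selenocysteine tRNA, measured 7.65 and 8.98 FPKM off doxycycline, against 21.6 and 27.0 FPKM on doxycycline (log2 change -1.49, limma adjusted p = 0.00266). Trnt1, which adds the CCA end to tRNAs, measured 13.3 and 16.6 FPKM off doxycycline, against 25.3 and 30.8 FPKM on doxycycline (log2 change -0.89, limma adjusted p = 0.0102). Both were lower without overlap. Xpot, the tRNA exporter, measured 39.8 and 37.6 FPKM off doxycycline, against 61.7 and 57.7 FPKM on doxycycline (log2 change -0.62, limma adjusted p = 0.00615), and with annotated isoforms alone its change was 0.69 and was not called (adjusted p = 0.339). Summed over its isoforms, Xpot was lower without overlap too.

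The later steps of translation are given beside the shares of all genes tested, 21.3% called lower and 19.7% higher. Of 8 tested genes of cytosolic elongation and release, 2 were called lower, the release factor Etf1 (log2 change -0.72) and Eef1g (-0.42), and 1 higher, the kinase Eef2k (0.79). Eef1d, with -0.47, was not called. Of 10 genes of mitochondrial translation, the release factor gene Mtrf1 (-0.74), the elongation factor genes Gfm2 (-0.58) and Guf1 (-0.48) were called lower and Mtrf1l (0.67) higher. The medians of these lists were -0.40 and -0.13, and their called counts lie near the shares of all genes.

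Among 15 genes of the eIF2 kinase pathway with Atf4 and its targets, 6 were called lower and none higher, with a median change of -0.27. The shares of all genes tested were 21.3% called lower and 19.7% higher. Chac1, a glutathione-degrading enzyme, measured 2.72 and 2.51 FPKM off doxycycline, against 11.8 and 12.2 FPKM on doxycycline (log2 change -2.00, limma adjusted p = 0.00131). Asns, asparagine synthetase, measured 184 and 175 FPKM off doxycycline, against 362 and 341 FPKM on doxycycline (log2 change -0.97, limma adjusted p = 0.00258). Both were lower in each library off doxycycline, as were Trib3 (-1.11), a pseudokinase, Cebpb (-0.78), a C/EBP factor, and Eif2s1 (-0.50), the alpha subunit of eIF2, which were called too. The 4 eIF2 kinases Eif2ak1, Eif2ak2, Eif2ak3 and Eif2ak4 were not called, with changes of -0.12 to 0.26. Ddit3, which overlaps Mars on the other strand, changed by -0.40 and was not called (adjusted p = 0.0811).

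**Figure D5:**
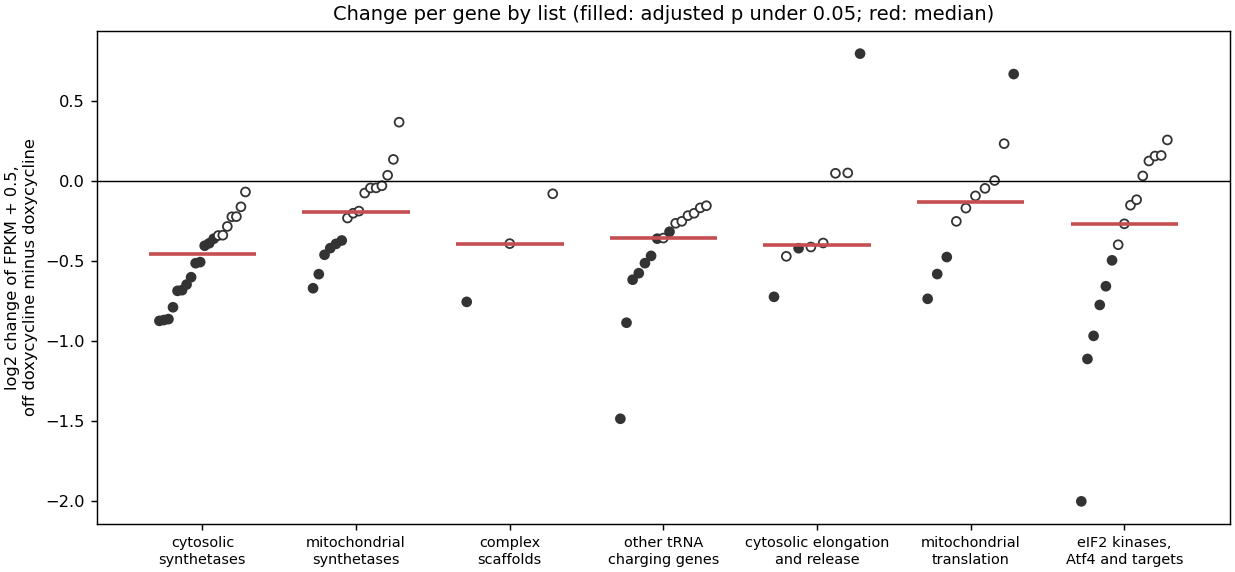
Log2 change per gene, off doxycycline minus doxycycline, for the cytosolic synthetases, mitochondrial synthetases, scaffolds and 4 lists of related genes. Each point is a gene that reached the test, filled where its adjusted p was under 0.05, and the red line is the median of the list. The medians are -0.46, -0.20, -0.39, -0.36, -0.40, -0.13 and -0.27 from left to right, and filled points above 0 appear only in the 2 translation lists (Eef2k and Mtrf1l).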

How the data were processed

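The authors deposited FPKM values per isoform of a Cuffmerge assembly, per the file headers; TopHat2 2.0.9, Cufflinks 2.1.1 and build NCBIM37 are named in the submitters' processing notes. What total the FPKM were scaled to is not given in the sources used here. From the 181027 isoforms, 31251 without a gene name and 8207 that were under 200 nt or of a class code other than = or j were left out. Isoforms under 200 nt held 98.9% to 99.6% of a library's summed FPKM. Gene symbols were read from the deposited annotation, which restored 25 symbols turned into dates.

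FPKM was summed per gene, and log2(FPKM + 0.5) was tested in R 4.3.3 by limma 3.58.1, two-sided and without pairing, with a trended prior (3.21 degrees of freedom beside 2 residual ones). The test took genes whose mean reached 1 FPKM in at least 1 condition. The libraries carry the numbers 0 and 1 in the files, which could not be matched to the labels' replicate numbers. Levels were set beside each other only as FPKM, which is per length. Read steps were sought at 1 to 6 reads in isoforms of at least 500 nt; 99.9% and 99.8% of values were whole within 0.1 read in the libraries numbered 1 off and on doxycycline, and 34.4% and 34.0% in those numbered 0, where chance gives 20%. Both procedures were tested on simulated data. For limma these values varied independently between libraries, so the test does not cover a correlation between libraries of the same number. Sequences were credited to RefSeq and GENCODE and matched by symbol. Python 3.11.15 with pandas 2.3.3 was used for the rest.

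The genes and lists were chosen with earlier results of these data known. Per-library values are given for genes called with a change of at least 0.5, Gars, Kars, the scaffolds and the genes nearest the threshold, and for the 4 largest changes of each other list in part; further ones (Farsa, Qars, Pars2, Lars2, Mars2, isoforms of Farsa) were chosen after their values were seen. The alternatives are pseudocounts, filters, scalings, isoform choices, limma without trend, a block for the library number and leaving out each library. The values of 1 gene of the related lists are not reported here.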

Additional observations from a re-analysis of the deposited data

How the results depend on the processing

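Of the 20 synthetase and scaffold genes called lower, all 20 stayed below 0 in each of 15 alternatives, and 8 (Eef1e1, Lars, Nars, Rars2, Sars, Tars, Wars and Yars) stayed called in all 15. The count of genes called lower was 14 with no filter on low values, 18 with both conditions brought to equal medians, 16 with TPM, 9 with the most abundant isoform, 14 with annotated isoforms (class code =) only, and 10 to 22 with a library left out. The number called higher was 1 with TPM (Vars2), 1 with the most abundant isoform and 1 without the library numbered 1 off doxycycline (Pars2 in both), and it ranged from 0 to 1 with a library left out. The library numbers mark no stated pairing; the deviations of same-numbered libraries correlated at 0.46 over all genes tested, and with the number as a replicate block 29 of the 39 genes were called lower (also Dars, Farsa, Hars, Iars, Kars, Mars, Iars2, Yars2 and Aimp1), as were 4530 of all genes tested.

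The median of the cytosolic enzymes was -0.30 with TPM and -0.56 to -0.37 with a library left out. That of the mitochondrial enzymes was -0.14 with equal medians, -0.039 with TPM and -0.24 to -0.10 with a library left out. With no filter on low values, 2181 of 23606 genes were called higher and 2017 lower, and with TPM 1917 of 14741 were called lower. The count of all genes with equal medians, and the numbers tested in the isoform fits, are not given here. Over all genes, 3996 were higher with TPM, 1067 higher and 986 lower with the most abundant isoform, 1277 and 1313 with annotated isoforms only, and 1413 to 2485 lower with a library left out. The Ago2 change was -0.16 with TPM, -0.18 with the most abundant isoform, -0.82 with annotated isoforms only and -0.35 to -0.29 with a library left out, and was not called in any of these.

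Some changes that were not called in the reported fit turned in sign. With equal medians these were Fars2 (0.024), Sars2 (0.011) and Wars2 (0.010), and with TPM Qars (0.090), Cars2 (0.081), Fars2 (0.13), Sars2 (0.11), Wars2 (0.10) and Aimp2 (0.078). Wars2 was at 0.22 with the most abundant isoform. With a library left out, Lars2 ranged from -0.53 to 0.064, Sars2 from -0.14 to 0.051, Wars2 from -0.24 to 0.15 and Aimp2 from -0.21 to 0.050, each among these fits above 0 only without the library numbered 0 off doxycycline. Of the related genes named as called, 14 were followed (not Guf1 and Eif2s1), and 8 of these stayed called in every alternative; among the 14 only Xpot turned in sign, to 0.69 with annotated isoforms only, and was not called there. The cause of these changes was not tested. The related lists as counts and the single isoforms were not run under the alternatives. With 2 libraries a condition and the depth of 2 of them unknown, a gene that did not pass is not shown to be unchanged.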
